A study of Mus musculus with 9 samples.

Results

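The 9 genes Shh, Ptch1, Hhip, Cdon, Boc, Gas1, Gli1, Gli2 and Gli3 were followed through formation of the mouse upper lip. They were taken by gene name from the 54532 genes of the count table, and each name matched a single row. The tissue was the lambdoidal junction, the site where the maxillary, medial nasal and lateral nasal processes of the face meet and fuse. It was dissected from C57BL/6J embryos of embryonic day 10.5 (E10.5), day 11.5 (E11.5) and day 12.5 (E12.5), with 3 RNA-seq libraries a stage and tissue of several embryos pooled in each library. The labels name no allele or treatment, and the 3 groups are named by age alone. The p-values describe the spread between these pools, since nothing in the labels ties a library to a litter or a day.

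Hedgehog ligands are secreted proteins that bind the membrane protein Patched on neighbouring cells and so release Smoothened, which then activates the Gli transcription factors. Sonic hedgehog (Shh) is made by the facial ectoderm, the pharyngeal endoderm and the ventral forebrain, and the neural crest mesenchyme of the face is a main responding tissue. Ptch1, Hhip and Gli1 are themselves induced by the pathway, Cdon, Boc and Gas1 are co-receptors that help cells bind the ligand, and Gli2 and Gli3 are the main activator and the main repressor. The pathway is known for its part in the outgrowth and fusion of the facial processes and in forebrain patterning.

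The table gave gene positions on the GRCm38 build. Shh (ENSMUSG00000002633) lies on the minus strand at chr5:28456815-28467256, Ptch1 (ENSMUSG00000021466) on the minus strand at chr13:63508328-63573598, and Hhip (ENSMUSG00000064325) on the minus strand at chr8:79965851-80058006. The co-receptor genes are Cdon (ENSMUSG00000038119, plus strand, chr9:35421128-35507652), Boc (ENSMUSG00000022687, minus strand, chr16:44485049-44558897) and Gas1 (ENSMUSG00000052957, minus strand, chr13:60174405-60177365). The Gli genes are Gli1 (ENSMUSG00000025407, minus strand, chr10:127329882-127341974), Gli2 (ENSMUSG00000048402, minus strand, chr1:118834132-119053619) and Gli3 (ENSMUSG00000021318, plus strand, chr13:15463235-15730026). All 9 are protein-coding, and counts cover their exons. In the GENCODE annotation 28.4% of the exon bases of Shh are shared with 9530036O11Rik and Gm26894 on the other strand, and 19.9% of those of Gas1 with Gm48488. The strand setting of the counting is not given in the sources used here, so reads of Shh and Gas1 cannot be fully told apart from those of these antisense genes.

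RefSeq promoter sequences on GRCm38.p6 were found for 6 of the 9 genes (Ptch1, Hhip, Cdon, Gas1, Gli2 and Gli3), and Shh, Boc and Gli1 have no entry in that table. Shown are the 250 bases before the RefSeq start of Ptch1, Hhip and Gas1, the receptor, the ligand-binding antagonist and the co-receptor whose levels are compared in the results, written 5′ to 3′ on the strand of the gene, with GC boxes (GGGCGG on either strand) in capitals. The windows are chr13:63565736-63565985 for Ptch1, chr8:80058009-80058258 for Hhip and chr13:60177536-60177785 for Gas1, all on the minus strand. The Ptch1 window lies inside the gene model and in no annotated exon, the Hhip window overlaps no exon, and the Gas1 window overlaps an exon of Gm48488 on the other strand.
Ptch1: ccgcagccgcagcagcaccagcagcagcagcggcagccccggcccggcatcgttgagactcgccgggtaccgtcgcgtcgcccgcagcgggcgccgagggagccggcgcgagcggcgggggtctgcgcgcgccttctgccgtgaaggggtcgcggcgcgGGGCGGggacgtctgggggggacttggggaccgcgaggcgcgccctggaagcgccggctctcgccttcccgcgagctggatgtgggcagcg
Hhip: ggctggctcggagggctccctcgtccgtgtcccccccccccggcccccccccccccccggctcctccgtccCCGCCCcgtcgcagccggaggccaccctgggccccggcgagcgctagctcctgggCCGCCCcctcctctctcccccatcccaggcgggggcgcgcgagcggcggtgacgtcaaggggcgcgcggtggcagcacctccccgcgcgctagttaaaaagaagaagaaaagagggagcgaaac
Gas1: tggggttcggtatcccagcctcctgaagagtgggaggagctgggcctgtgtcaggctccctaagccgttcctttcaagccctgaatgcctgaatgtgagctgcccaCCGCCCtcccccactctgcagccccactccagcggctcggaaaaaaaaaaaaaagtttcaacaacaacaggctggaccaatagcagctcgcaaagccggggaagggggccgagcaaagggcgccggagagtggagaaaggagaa
The Ptch1 window held 1 GC box, at 91 to 86 bases before the start, the Hhip window held 2 and the Gas1 window 1. Gli2 held 1, Gli3 held 2 and Cdon none. The Cdon window, chr9:35451826-35452075, lies inside the gene model and overlaps a Cdon exon, so it is not the region before the start of that model. GC content was 78.4% for Ptch1, 76.0% for Hhip and 58.8% for Gas1, beside a median of 52.0% over the upstream windows of 27025 genes. A GC box was found in 32.9% of those windows. The Gli binding motif GACCACCCA was searched on both strands and occurred in 0.211% of all windows and in none of the 6, which says only that these letters are not in these 250 bases. TATAAA was found in 13.0% of all windows and in none of the 6.

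Total counts were 16581009 to 20836804 a library. Levels are given as CPM, a gene's counts per 1000000 counts of its library after TMM scaling. The log2 fold changes (log2FC) and their p-values are those of the quasi-likelihood test in edgeR, adjusted over all genes tested by the method of Benjamini and Hochberg. A gene is called changed at an adjusted p of 0.05 or less, and is a differentially expressed gene (DEG), by the thresholds the study used, where its absolute log2FC is also at least 1. All 9 genes passed the filter on low counts in every comparison. The third E10.5 library stood apart from its group. The log2 differences between this library and the other E10.5 libraries had an SD of 0.703 to 0.711 over genes, against 0.393 between those other libraries, and they went with GC content (Spearman's rho 0.524 and 0.537, over genes). Boc, Gas1, Gli1 and Gli2, with 55.9% to 59.0% GC in their exons, were lowest in that library, while Shh and Hhip (52.3% and 41.2%) were highest there among the E10.5 libraries. Ptch1 (47.8% GC) and Cdon (48.7%) were also lowest there. Summed levels of cell type markers, described below, differed in that library too. Surface epithelium markers summed to 801 CPM there, against 439 and 500 CPM in the other E10.5 libraries. Facial mesenchyme markers summed to 1041 CPM, against 1691 and 1675, and endothelium markers to 104 CPM, against 259 and 256. The parts of GC content and of tissue make-up in these levels were not tested.

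**Figure D1:**
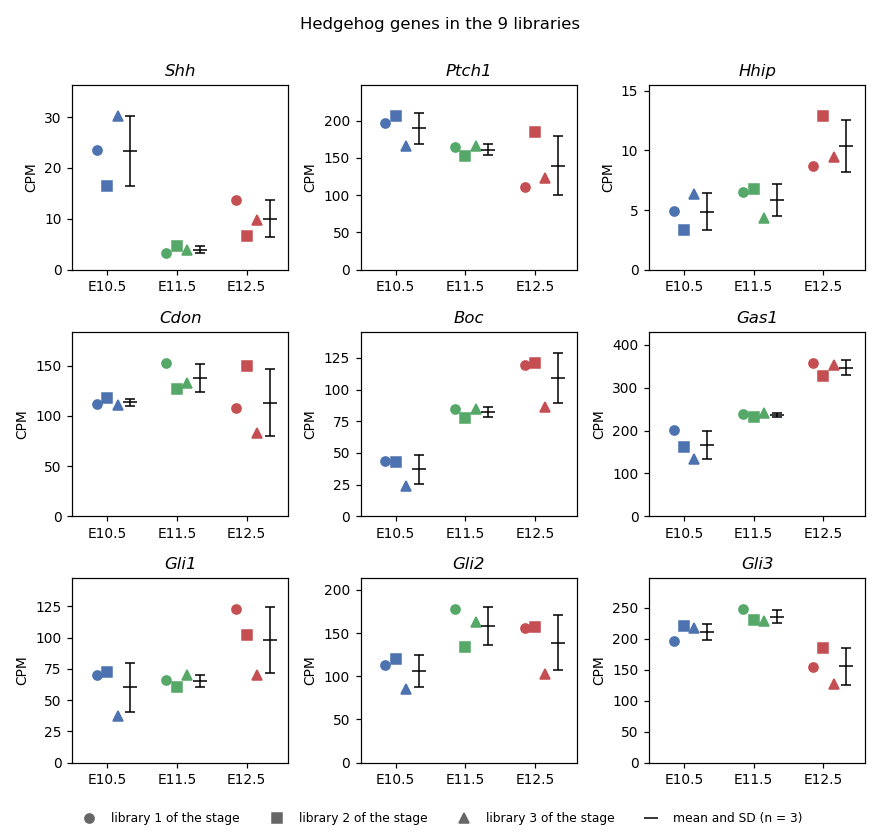
Level of each of the 9 Hedgehog genes in the 9 libraries, in CPM (y axis, from 0) by stage (x axis), with each library as a symbol and the mean with its SD (n = 3) to the right. The 3 E11.5 libraries of Shh lie between 3.23 and 4.66 CPM, under all others, and the 3 E12.5 libraries of Gas1 lie at 327 CPM or more, over all others.

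Shh, the ligand, fell steeply between E10.5 and E11.5 and rose again in part by E12.5. Its level was 23.5, 16.4 and 30.2 CPM in the E10.5 libraries, 3.23, 4.66 and 3.95 CPM at E11.5, and 13.7, 6.52 and 9.72 CPM at E12.5. The 3 stages did not overlap. The fall from E10.5 to E11.5 was 5.88-fold (log2FC -2.56, SE 0.26, adjusted p = 0.00166), and Shh passed the test in 15 of 15 other settings. From E11.5 to E12.5 Shh rose 2.51-fold (log2FC 1.33, SE 0.27, adjusted p = 0.0102), and without the first E12.5 library the adjusted p was 0.0629 at a log2FC of 1.03. At E12.5 it was still 2.32-fold below E10.5 (log2FC -1.22, SE 0.31, adjusted p = 0.0149), and without the third E12.5 library the adjusted p was 0.0630. The later change minus the earlier change was 3.90 on the log2 scale (SE 0.55, 95% interval 2.71 to 5.08, adjusted p = 0.00527). This difference between the intervals passed for Shh and for none of the other 8 members, and over all genes 1.18% passed it. It also passed, with the same sign, for 4 of 9 forebrain and eye markers (Sox1, Sox2, Lhx2 and Rax). In the later interval Sox1 and Rax were too low to test, and Sox2 and Lhx2 did not pass. Emx2 alone of the 6 markers tested there passed. The mean levels of the 4 at E11.5 and E12.5 were 0.632 and 0.766 CPM (Sox1), 44.3 and 49.3 (Sox2), 29.6 and 37.3 (Lhx2), and 0.0176 and 0.366 (Rax). All E12.5 libraries of Lhx2 and Rax lay above those of E11.5, while the libraries of Sox1 and Sox2 overlapped. For Shh, without the first or the third E11.5 library the adjusted p of the difference was 0.0572 and 0.0554. The genes antisense to Shh, 9530036O11Rik and Gm26894, were at most 0.215 and 0.805 CPM in any library.

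The markers of several tissues moved beside Shh. The summed level of 8 surface epithelium markers was 439 to 801 CPM at E10.5, 465 to 488 CPM at E11.5 and 708 to 778 CPM at E12.5. The members of this list went opposite ways. Krt5 and Krt14, keratins of the basal layer, rose at both steps, from 2.12 ± 0.431 to 34.5 ± 8.43 and 151 ± 2.42 CPM for Krt5 and from 16.0 ± 4.84 to 31.3 ± 5.16 and 158 ± 35.6 CPM for Krt14 (SD, n = 3). Krt8 and Krt18, keratins of simple epithelium, fell by 0.86 and 1.03 on the log2 scale between E10.5 and E11.5 (adjusted p = 0.0232 and 0.0213). Epcam, Cdh1, Trp63 and Esrp1 passed in no comparison. The ratio of Shh to Epcam, an epithelial adhesion gene, followed Shh itself: its log2 value was -1.86, -2.53 and -2.32 at E10.5, -4.74, -4.35 and -4.48 at E11.5, and -2.96, -3.86 and -3.62 at E12.5. The stages did not overlap in this ratio (exact permutation test over the 1680 assignments of libraries to stages, p = 0.00357, adjusted over 8 ratios 0.00714). The summed level of 9 forebrain and eye markers was 325 to 457 CPM at E10.5, 137 to 147 CPM at E11.5 and 172 to 218 CPM at E12.5, and 8 of the 9 were lower at E11.5 than at E10.5 by the edgeR test. Of this list Otp was at 0 in all 3 E11.5 libraries and Rax in 2 of them. Sox1, Rax and Otp passed the filter on low counts through their E10.5 libraries only. In bulk tissue, fewer cells of a type and less RNA per cell cannot be told apart. The part of the forebrain and eye markers in the fall of Shh was not tested.

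**Figure D2:**
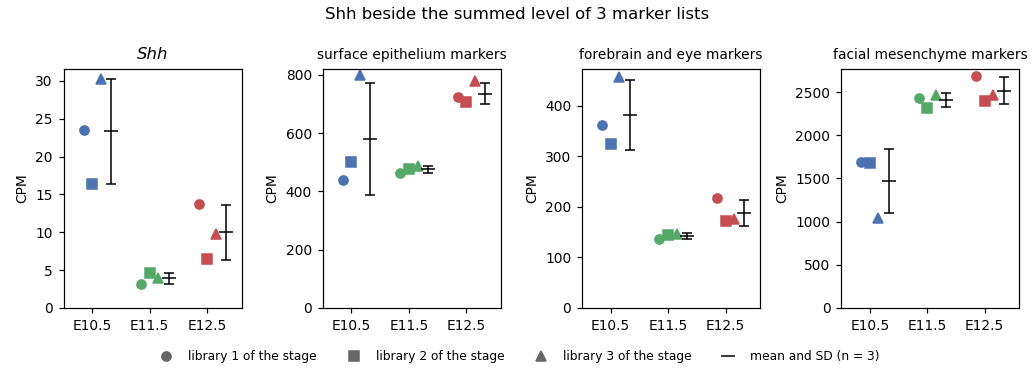
Level of Shh and the summed levels of 8 surface epithelium, 9 forebrain and eye and 8 facial mesenchyme markers, in CPM (y axes, from 0) by stage, with each library as a symbol and the mean with its SD (n = 3) to the right. Shh and the forebrain and eye sum are highest in the 3 E10.5 libraries and lowest in the 3 E11.5 libraries, while the mesenchyme sum is lowest at E10.5.

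Ptch1, the receptor that holds Smoothened off until ligand binds, passed the test in none of the 3 comparisons. It read 197, 206 and 166 CPM at E10.5, 164, 153 and 166 CPM at E11.5, and 111, 185 and 123 CPM at E12.5. The second E12.5 library was high for its stage, and neighbouring stages overlapped. Ptch1 did not pass in E11.5 vs. E10.5 (log2FC -0.23, 95% interval -0.49 to 0.02, adjusted p = 0.219), E12.5 vs. E11.5 (log2FC -0.21, interval -0.60 to 0.18, adjusted p = 0.448) or E12.5 vs. E10.5 (log2FC -0.43, interval -0.91 to 0.04, adjusted p = 0.165). These intervals allow a fall of up to 0.91 on the log2 scale across the whole period. Without the third E10.5 library the first of these passed, with a log2FC of -0.32 and an adjusted p of 0.00223. Without the second E12.5 library E12.5 vs. E11.5 passed as well, with an adjusted p of 0.00858, and E12.5 vs. E10.5 with 0.0314.

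Hhip, a membrane protein that binds Hedgehog ligands and withholds them from Ptch1, rose late from a low level. Its level was 4.93, 3.31 and 6.38 CPM at E10.5, 6.51, 6.73 and 4.32 CPM at E11.5, and 8.73, 12.9 and 9.48 CPM at E12.5. The E12.5 libraries lay above all others, and the 2 earlier stages overlapped. Counts were 57 to 239 a library, beside 60 to 488 for Shh and 382 to 6369 for the other 7 members. Hhip rose 1.76-fold from E11.5 to E12.5 (log2FC 0.82, SE 0.22, adjusted p = 0.0372) and 2.14-fold from E10.5 to E12.5 (log2FC 1.10, SE 0.29, adjusted p = 0.0192). The former was lost without any of the E11.5 libraries or without the first E12.5 library (adjusted p = 0.0750 to 0.148) and with 1 spread estimated over all 9 libraries (0.0867). The latter was lost without the second E10.5 library (0.0743) or the second E12.5 library (0.0666).

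Among the co-receptors, Boc and Gas1 rose and Cdon did not pass the test. Boc, an immunoglobulin superfamily protein that binds the ligand, read 43.8, 43.1 and 23.7 CPM at E10.5, 84.4, 77.4 and 84.3 CPM at E11.5, and 119.7, 121 and 86.6 CPM at E12.5. The 3 stages did not overlap. Boc rose 2.23-fold from E10.5 to E11.5 (log2FC 1.16, SE 0.22, adjusted p = 0.0143). Leaving out the first or the third E11.5 library ended that call (adjusted p = 0.0792 and 0.0688), while leaving out the third E10.5 library kept it at a log2FC of 0.92. From E11.5 to E12.5 its log2FC was 0.41 (interval 0.09 to 0.73, adjusted p = 0.0899), which did not pass, though it did without the third E12.5 library (adjusted p = 0.00814). Across the whole period Boc rose 2.98-fold (log2FC 1.58, SE 0.25, adjusted p = 0.00118), and it passed in 15 of 15 other settings.

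Gas1, a lipid-anchored surface protein that binds the ligand, was 202, 162 and 135 CPM at E10.5, 238, 231 and 241 CPM at E11.5, and 359, 327 and 354 CPM at E12.5. Every library of a later stage lay above every library of an earlier stage. The first step, a log2FC of 0.51 (interval 0.17 to 0.85, adjusted p = 0.0606), did not pass. It passed after correction of each library for GC content (log2FC 0.56, adjusted p = 0.00469) and without the third E10.5 library (log2FC 0.38, adjusted p = 0.00328). The second step was a rise of 1.46-fold (log2FC 0.55, SE 0.11, adjusted p = 0.0107). That call was lost without any of the E11.5 libraries (adjusted p = 0.0664 to 0.0931). From E10.5 to E12.5 Gas1 rose 2.10-fold (log2FC 1.07, SE 0.19, adjusted p = 0.00233), in 15 of 15 other settings too. Gm48488, the gene antisense to Gas1, was at 1.35 CPM or less in every library.

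Cdon, the relative of Boc, was 112, 118 and 111 CPM at E10.5, 153, 127 and 133 CPM at E11.5, and 108, 149 and 82.8 CPM at E12.5. The E11.5 libraries lay above those of E10.5, and the E12.5 libraries spanned both. Its log2FC was 0.28 in E11.5 vs. E10.5 (interval 0.04 to 0.53, adjusted p = 0.128), -0.29 in E12.5 vs. E11.5 (interval -0.71 to 0.13, adjusted p = 0.337) and 0.0049 in E12.5 vs. E10.5 (interval -0.47 to 0.48, adjusted p = 0.991). The first of these passed without the third E10.5 library (adjusted p = 0.0197) and the second without the second E12.5 library (adjusted p = 0.0130).

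The 3 Gli genes, which encode the zinc finger factors at the end of the pathway, differed from each other in course. Gli1, the activator that the pathway itself switches on, was 70.4, 72.7 and 37.6 CPM at E10.5, 66.2, 60.5 and 70.1 CPM at E11.5, and 123, 102 and 69.8 CPM at E12.5. The third library was the lowest at both E10.5 and E12.5, and all pairs of stages overlapped. Its log2FC was 0.13 in E11.5 vs. E10.5 (interval -0.40 to 0.66, adjusted p = 0.764), 0.57 in E12.5 vs. E11.5 (interval 0.17 to 0.97, adjusted p = 0.0635) and 0.71 in E12.5 vs. E10.5 (interval 0.11 to 1.32, adjusted p = 0.0841), none of which passed. The second passed with DESeq2 (adjusted p = 0.0312), without the third E12.5 library (0.00301) and not after GC correction (0.140), and the third passed after GC correction (0.0336).

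Gli2, the main activator, was 113, 119.8 and 85.1 CPM at E10.5, 178, 134 and 162 CPM at E11.5, and 156, 157 and 102 CPM at E12.5. The E11.5 libraries lay above those of E10.5, and E12.5 overlapped both. Gli2 passed in no comparison: its log2FC was 0.58 in E11.5 vs. E10.5 (interval 0.21 to 0.95, adjusted p = 0.0540), -0.19 in E12.5 vs. E11.5 (interval -0.58 to 0.19, adjusted p = 0.489) and 0.40 in E12.5 vs. E10.5 (interval -0.08 to 0.87, adjusted p = 0.209). The first passed with DESeq2 (adjusted p = 0.0149), after GC correction (0.00755) and without the third E10.5 library (0.00344, log2FC 0.44).

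Gli3, the main repressor, fell in the later interval. It was 197, 221 and 217 CPM at E10.5, 248, 229.6 and 229 CPM at E11.5, and 155, 186 and 127 CPM at E12.5. The E12.5 libraries lay below all others. Gli3 was 1.52-fold lower at E12.5 than at E11.5 (log2FC -0.60, SE 0.15, adjusted p = 0.0230). That call was lost without any of the E11.5 libraries or without the first E12.5 library (adjusted p = 0.0678 to 0.0987). Its log2FC was 0.16 in E11.5 vs. E10.5 (interval -0.07 to 0.38, adjusted p = 0.337) and -0.43 in E12.5 vs. E10.5 (interval -0.84 to -0.03, adjusted p = 0.114), and neither passed. Without the second E12.5 library the latter passed, with an adjusted p of 0.0488.

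**Figure D3:**
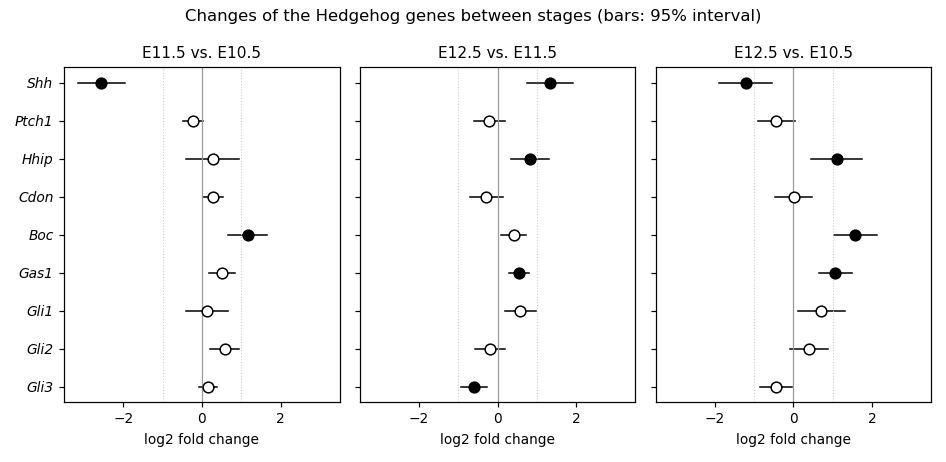
Change of each of the 9 genes in the 3 comparisons, as the log2 fold change from edgeR (x axis) with its 95% interval (bar); filled points passed at an adjusted p of 0.05 or less, and dotted lines mark a log2 fold change of -1 and 1. Shh is on the left in both comparisons with E10.5 and on the right in E12.5 vs. E11.5, and Boc, Gas1 and Hhip are on the right in E12.5 vs. E10.5.

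Counted over the 9 genes, E11.5 vs. E10.5 had 1 gene higher (Boc) and 1 lower (Shh), both DEGs, beside 6.19% of all genes called higher and 5.58% lower, and 3.46% and 2.61% as DEGs. Without the third E10.5 library 6 passed, and without the first or the third E11.5 library 1 did. For fits with a library left out the share of all genes that passed was not computed. In 6 of the 9 the libraries of E10.5 and E11.5 did not overlap, against 36.6% of all genes tested. E12.5 vs. E11.5 had 3 higher (Shh, Gas1, Hhip) and 1 lower (Gli3), beside 7.61% and 4.57% of all genes, and Shh was the single DEG, where 4.14% of all genes were DEGs on the higher side and 0.962% on the lower. Only 1 of the 9 passed without the first E12.5 library or any single E11.5 library. Libraries did not overlap in 5 of the 9, against 35.4% of all genes. E12.5 vs. E10.5 had 3 higher (Boc, Hhip, Gas1) and 1 lower (Shh), all DEGs, beside 14.0% and 10.5% of all genes changed and 9.97% and 5.08% called DEGs. Here 5 of the 9 did not overlap, against 42.4% of all genes. A test for any difference among the 3 stages passed for 5 of the 9 (Shh, Boc, Gas1, Hhip and Gli3), beside 28.3% of all genes. The median log2FC of the 9 was 0.27, 0.41 and 0.40 in the 3 comparisons, in the order given, and that of all genes was -0.03, 0.02 and -0.0063. The comparisons share libraries, so their counts are not independent of each other.

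Ratios between genes of the same library, as log2 of raw counts with 0.5 added to each, use no scaling of libraries. Each of 8 ratios was fixed as a pair of roles and compared over the 3 stages by the exact permutation test described for Shh and Epcam, and all 8 had an adjusted p under the threshold (0.00714 to 0.0357, the smallest p the design allows being 0.00357 before adjustment). The ratios compare libraries, and gene length is not taken out of them. Boc gained on Cdon at each step, with log2 ratios of -1.35, -1.45 and -2.23 at E10.5, -0.86, -0.71 and -0.66 at E11.5, and 0.15, -0.30 and 0.07 at E12.5 (permutation p = 0.00357, adjusted 0.00714). Gas1 gained on Cdon late, with 0.85, 0.46 and 0.28 at E10.5, 0.63, 0.86 and 0.85 at E11.5, and 1.74, 1.13 and 2.10 at E12.5 (permutation p = 0.00714, adjusted 0.00816). Without the second or the third E10.5 library the adjusted p of this ratio was 0.0536.

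Both activators gained on the repressor Gli3 by E12.5, Gli2 at each step and Gli1 in the later interval only. The log2 ratio of Gli2 to Gli3 was -0.80, -0.88 and -1.35 at E10.5, -0.48, -0.78 and -0.50 at E11.5, and 0.02, -0.24 and -0.31 at E12.5, with no overlap between stages (permutation p = 0.00357, adjusted 0.00714). For Gli1 over Gli3 it was -1.48, -1.60 and -2.53, then -1.91, -1.92 and -1.71, then -0.33, -0.87 and -0.86 (permutation p = 0.0357, adjusted 0.0357), and 0.0679 after adjustment without the first E12.5 library. Gli1 over Gli2 was lowest at E11.5, at -1.42, -1.15 and -1.21, and highest at E12.5, at -0.35, -0.63 and -0.55. The E10.5 libraries, at -0.68, -0.72 and -1.18, reached into the E11.5 range through the third library alone (permutation p = 0.00714, adjusted 0.00816).

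Of the genes the pathway induces, Gli1 and Hhip gained on Ptch1. Gli1 over Ptch1 was -1.48, -1.50 and -2.14 at E10.5, -1.31, -1.34 and -1.25 at E11.5, and 0.14, -0.86 and -0.82 at E12.5 (permutation p = 0.00357, adjusted 0.00714). Hhip over Ptch1 was -5.31, -5.95 and -4.70, then -4.65, -4.50 and -5.26, then -3.67, -3.84 and -3.69 (permutation p = 0.00714, adjusted 0.00816). In both ratios all 3 E12.5 libraries lay above the other 6. These ratios compare genes of unlike GC content, and the third E10.5 library was the lowest of the 9 in 5 of the 8 ratios (Gli1 over Gli3, Gli2 over Gli3, Gli1 over Ptch1, Gas1 over Cdon and Boc over Cdon). Its part in these ratios is given by the values without it: the adjusted p was 0.0114 to 0.0536 over the 8.

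**Figure D4:**
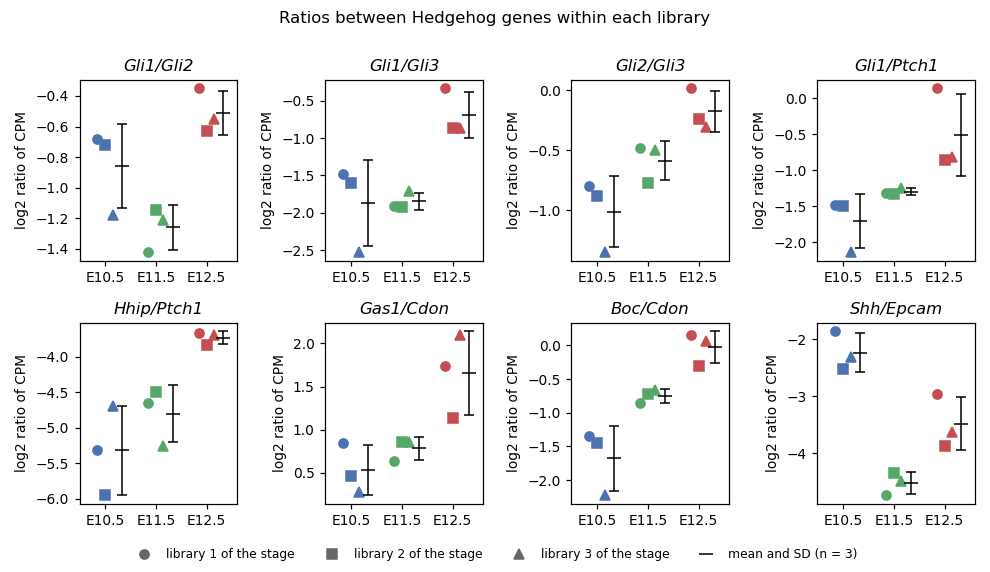
Log2 ratio of raw counts, with 0.5 added to each, between pairs of genes by stage. The y axes are labelled as CPM and do not start at 0. Each library is a symbol, with the mean and its SD (n = 3) to the right. Gli2/Gli3 and Boc/Cdon lie higher at each later stage with no overlap, and Shh/Epcam is lowest in the 3 E11.5 libraries.

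Per kilobase of gene length, the scale on which genes can be set side by side, Gas1 was highest at each stage, at 56.1 ± 11.4 (SD, n = 3), 79.8 ± 1.73 and 117 ± 5.83 CPM per kb. Hhip was lowest at each, at 0.537 ± 0.169, 0.645 ± 0.147 and 1.14 ± 0.244 CPM per kb. At E10.5 the order under Gas1 was Gli3 (22.1 ± 1.36), Gli2 (15.4 ± 2.68), Cdon (14.7 ± 0.495), Ptch1 (13.4 ± 1.48), Gli1 (12.1 ± 3.93), Boc (8.28 ± 2.57), Shh (8.20 ± 2.43) and Hhip. From Gli2 to Shh the libraries of each neighbouring pair overlapped. At E11.5 the order was Gas1, Gli3 (24.6 ± 1.11), Gli2 (23.0 ± 3.22), Boc (18.4 ± 0.899), Cdon (17.9 ± 1.78), Gli1 (13.1 ± 0.963), Ptch1 (11.4 ± 0.508), Shh (1.39 ± 0.252) and Hhip, with overlap of Gli3 with Gli2 and of Boc with Cdon only. At E12.5 it was Gas1, Boc (24.5 ± 4.41), Gli2 (20.2 ± 4.61), Gli1 (19.6 ± 5.34), Gli3 (16.2 ± 3.07), Cdon (14.7 ± 4.36), Ptch1 (9.84 ± 2.77), Shh (3.51 ± 1.27) and Hhip, and each neighbour from Boc to Ptch1 overlapped the next. Boc moved from the seventh place to the second and Gli3 from the second to the fifth.

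Of the pathway's other genes, 47 were examined by role. In E11.5 vs. E10.5 none of the 43 tested was higher and 9 were lower, in E12.5 vs. E11.5 none of 40 was higher and 5 were lower, and over the whole period none of 43 was higher and 11 were lower. Over all genes tested, 6.19% were higher and 5.58% lower in the first comparison, 7.61% and 4.57% in the second, and 14.0% and 10.5% in the last. The median log2FC of the tested genes was -0.0088, -0.10 and -0.07 in that order. Among the genes lower than at E10.5, Nkx2-1, Nkx2-2 and Nkx6-1 passed the filter on low counts through their E10.5 libraries only. So did Disp2 in E11.5 vs. E10.5. Such genes could be called only lower, which limits the comparison of these counts with the shares of all genes. The other ligands, Dhh and Ihh, were at most 0.433 and 0.563 CPM in any library. Without the third E10.5 library the count in E11.5 vs. E10.5 was 25, and without the first or the third E11.5 library it was 5. For E12.5 vs. E11.5 it was 2 without the first E12.5 library, 13 without the second, and 3 without the second or the third E11.5 library. The share of all genes passing with a library left out was not computed, so these counts cannot be set against it.

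Of the 8 genes for ligands and their release, 5 were tested, and Scube1 and Scube3, secreted proteins of the group that frees ligand from the producing cell, fell. Scube3 was 211.8 ± 17.4 CPM (SD, n = 3) at E10.5, then 138 ± 5.97 and 105 ± 23.9 CPM, a log2FC of -0.62 in the first interval (SE 0.10, adjusted p = 0.00894) and of -1.003 in all (SE 0.20, adjusted p = 0.00451). Scube1 was 162 ± 71.6, 101 ± 13.9 and 41.1 ± 14.4 CPM, and fell by 1.31 on the log2 scale in the later interval (SE 0.23, adjusted p = 0.00443). Disp2, a relative of the ligand exporter Disp1, was at 1.07 to 1.68 CPM at E10.5 and 0.215 to 0.579 CPM at E11.5 (adjusted p = 0.0356), a call that was lost in 6 of the 14 other settings that tested it.

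Of the 10 genes for reception examined, 1 fell and the others did not pass. Smo, which encodes Smoothened, was 323 ± 39.5, 288 ± 4.36 and 266 ± 45.9 CPM and passed in no comparison (adjusted p = 0.330 to 0.587). Lrp2, an endocytic receptor of the forebrain neuroepithelium that binds Shh, fell by 2.24 in E11.5 vs. E10.5 (SE 0.27, adjusted p = 0.00282) and by 3.11 in E12.5 vs. E10.5 (SE 0.36, adjusted p = 0.000125) on the log2 scale, from 52.8, 54.9 and 103 CPM at E10.5 to 5.31 to 12.1 CPM at E12.5.

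None of the 16 genes that carry the signal from Smoothened to the Gli proteins passed in either comparison with E10.5, and 1 did in E12.5 vs. E11.5. That gene was Sufu, which binds and restrains Gli proteins. It was 117, 124 and 81.0 CPM at E10.5, 116, 119 and 122 CPM at E11.5, and 78.0, 99.2 and 71.7 CPM at E12.5. The log2FC in the later interval was -0.53 (SE 0.14, adjusted p = 0.0320), and the call was lost in 5 of 15 other settings, among them the fit on all 9 libraries.

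**Figure D5:**
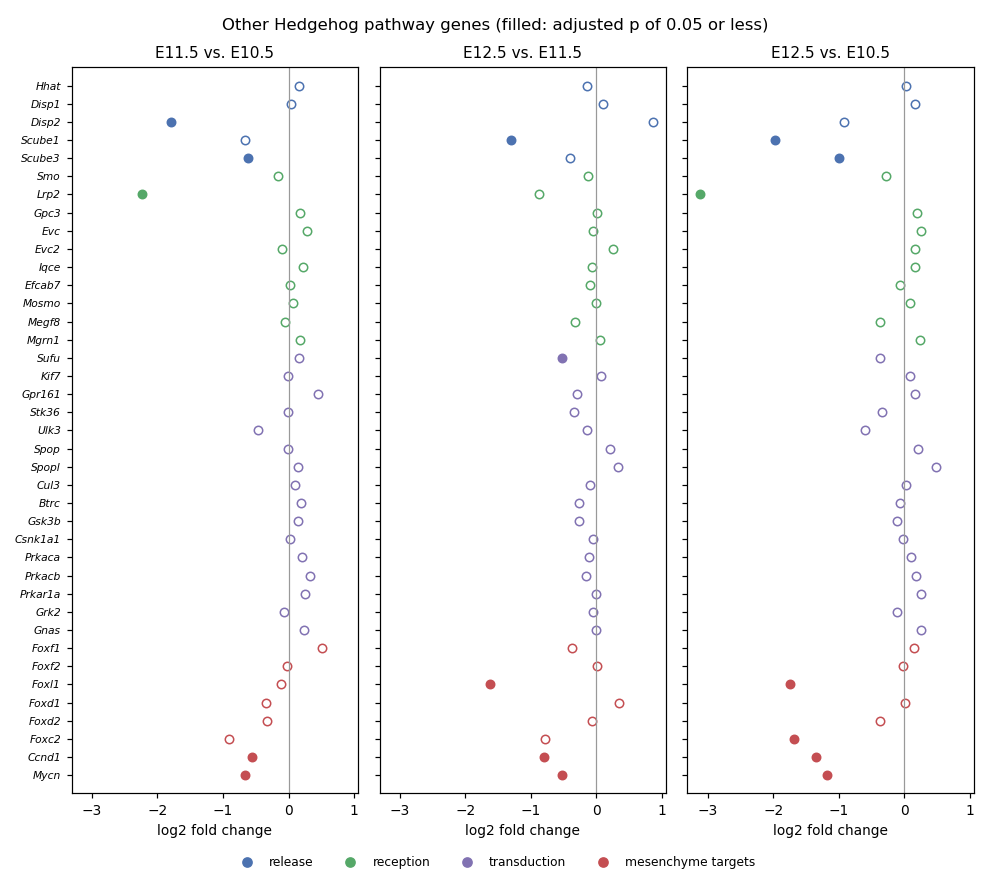
Log2 fold change from edgeR (x axis, the same in each panel) of the tested genes of the release, reception, transduction and mesenchyme target groups in the 3 comparisons; filled points passed at an adjusted p of 0.05 or less, and the neural tube group is not drawn, since 3 of its 4 tested genes were near 0 after E10.5. The transduction genes lie near 0 throughout, and all filled points lie to the left of 0.

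Of 8 genes induced by Hedgehog signaling in mesenchyme, 4 fell between E10.5 and E12.5 and none rose, beside 10.5% of all genes tested that were lower and 14.0% that were higher. Ccnd1, a driver of the cell cycle, fell by 0.56 and 0.80 on the log2 scale in the 2 intervals (SE 0.10 and 0.16, adjusted p = 0.0127 and 0.0105), from 328 ± 18.6 to 222 ± 14.3 and 128 ± 30.0 CPM. Mycn, a proto-oncogene of dividing precursors, fell by 0.66 and 0.53 (SE 0.12 and 0.12, adjusted p = 0.0140 and 0.0183), from 137 ± 16.1 to 86.3 ± 8.22 and 60.0 ± 3.42 CPM. Foxl1, a forkhead factor, fell by 1.63 in the later interval (SE 0.30, adjusted p = 0.00637), and Foxc2 by 1.69 over the whole period (SE 0.40, adjusted p = 0.0117). The 15.7 CPM of Foxc2 in the third E10.5 library lay inside the E12.5 range. Foxf1, Foxf2, Foxd1 and Foxd2 passed in no comparison, and all 4 were lowest at E10.5 in the third library.

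The 4 tested targets of Shh in the ventral neural tube were all lower after E10.5, to different degrees. Nkx2-1, Nkx2-2 and Nkx6-1 passed the filter on low counts through their E10.5 libraries only, so the tests could call them only lower. Olig2 alone was also tested in E12.5 vs. E11.5. Nkx2-1, a factor of the ventral forebrain, was 31.4, 43.8 and 57.9 CPM at E10.5, 0, 2.36 and 0.369 CPM at E11.5, and 0.958, 0 and 0 CPM at E12.5. Olig2, a factor of the motor neuron domain, was 19.7, 25.0 and 31.3 CPM at E10.5, 3.55, 5.34 and 4.16 CPM at E11.5, and 5.18, 5.88 and 4.11 CPM at E12.5 (log2FC -2.53, SE 0.23, adjusted p = 0.00130 in the earlier interval). Nkx2-2 and Nkx6-1 were at 1.10 CPM or more in each E10.5 library and at 0.282 CPM or less in every later one. Olig2 was still found in every later library, with 66 counts or more, while the other 3 were at 0 in at least 1 library of each later stage. The fifth gene of this group, Foxa2, was too low to test. Shh fell together with these genes, and their part in its fall was not tested.

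The other marker lists were summed in the same way, and these sums do not measure the share of each cell type. Facial mesenchyme markers summed to 1041 to 1691 CPM at E10.5, 2312 to 2469 CPM at E11.5 and 2392 to 2689 CPM at E12.5, with 4 of 8 higher at E11.5 than at E10.5. Boc and Gas1 were higher beside this sum at E11.5 than at E10.5. In E12.5 vs. E11.5 the sums of the 2 stages overlapped, with 1 of the 8 markers lower and none higher, while Gas1 rose 1.46-fold. The part of the mesenchyme markers in the rise of Boc and Gas1 was not tested. Neuron markers summed to 155 to 189, 184 to 207 and 275 to 312 CPM, endothelium markers to 104 to 259, 253 to 272 and 203 to 273 CPM, and cartilage markers to 428 to 989 CPM over the 9 libraries. Red blood cell markers summed to 3081 to 4982 CPM, and 4 of 5 were lower at E12.5 than at E11.5. Skeletal muscle markers summed to 0.433 to 2.45 CPM, with Myog or Myod1 at 0 in 3 libraries.

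The genes whose level followed a member most closely over the 9 libraries were named by Pearson's r of log2 CPM, as a description without a test. For Shh they were Fam69c (r = 0.987), Atcay (0.980) and Fam19a5 (0.975). Ptch1 had Dnajc16 (0.967), Nbeal2 (0.966) and Ptprf (0.965), and Gli1 had Plec (0.985), Tns2 (0.973) and Ppp1r13l (0.972). Gas1 had Col8a2 (0.994) and Islr (0.992). The 9 points share stages and the GC trend of the third E10.5 library.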

How the data were processed

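RNA of lambdoidal junction tissue was sequenced from Illumina TruSeq libraries. The authors aligned reads with HISAT2 (version 2.0.5) to GRCm38 (mm10) and counted them per gene with featureCounts, and the deposited table holds these raw counts for 9 libraries. It also holds FPKM values that the authors computed from counts and gene length, and the authors' own fold changes and p-values, none of which were used. The members and lists were chosen with earlier results of these data known. Library totals of 16581009 to 20836804 set the precision. Counts were tested with edgeR 4.0.16 in R 4.3.3 (filterByExpr, TMM, quasi-likelihood F test) on the 6 libraries of each pair of stages, and on all 9 for the 3-stage test and for the difference between the intervals. Adjusted p-values are Benjamini-Hochberg values over all genes tested. Scripts were tested on simulated data. Ratios were tested with an exact permutation test over the 9 libraries, one-sided in F, which covers differences in either direction. Named were all members, in each pathway group up to 4 genes that passed, largest log2FC first, Smo and Sufu, and the 3 protein-coding genes most correlated with each of Shh, Ptch1, Gli1 and Gas1, except that 1 pathway gene and 1 correlated gene are not reported here. Alternatives were other scalings and filters, DESeq2 1.42.0, a fit on all 9 libraries, a replicate block, a GC correction and leaving out each library.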

Additional observations from a re-analysis of the deposited data

Results flagged for a closer look

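The change of Shh between E11.5 and E12.5 minus its change between E10.5 and E11.5 was 3.90 on the log2 scale (SE 0.55, edgeR adjusted p = 0.00527): it fell in the earlier interval and rose in the later one. In the fall, all 3 E11.5 libraries lay below all 3 E10.5 libraries, and in the rise all 3 E12.5 libraries lay above those of E11.5. Of 14 other settings, 12 gave an adjusted p under the threshold.

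Olig2, the neural tube target gene, had a difference of 2.75 by the same test (SE 0.42, adjusted p = 0.0101). It fell in the earlier interval and its log2FC in the later one was 0.21 (adjusted p = 0.568).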

How the results depend on the processing

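The number of members changed in E11.5 vs. E10.5 was 2 as reported, 4 with DESeq2, 4 with all genes with at least 1 count, 4 with the GC correction, 4 with the replicate block and GC correction together, and 1 to 6 when 1 library was left out. In E12.5 vs. E11.5 it was 4, and 1 to 6 when 1 library was left out. In E12.5 vs. E10.5 it was 4, and 7 with the replicate block and GC correction together. Members passing the difference between the intervals were 1, and 0 to 1 when 1 library was left out. Other pathway genes changed in E11.5 vs. E10.5 were 9, but 5 with at least 10 counts in every library, 14 with the GC correction and 5 to 25 when 1 library was left out. In E12.5 vs. E11.5 they were 5, but 8 with all genes with at least 1 count, 9 with the replicate block and GC correction together and 2 to 13 when 1 library was left out. The share of all genes passing was computed for the reported fits only, and the cause of these shifts was not tested.

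The log2FC of Gli1 in E11.5 vs. E10.5 turned to -0.12 without the third E10.5 library (range -0.12 to 0.28 over libraries left out). That of Cdon in E12.5 vs. E10.5 lay at 0 within its error and turned to -0.013 with DESeq2 size factors, -0.0096 with DESeq2, -0.0034 in the fit on all 9 libraries, -0.036 with the replicate block, -0.032 with the block and GC correction, and -0.25 to 0.18 when 1 library was left out. The difference between the intervals turned for Ptch1 to -0.0040 with all genes with at least 1 count, -0.014 with the block and -0.22 to 0.17 when 1 library was left out, and for Gas1 it was -0.12 to 0.13. None of these passed the test as reported.

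Deviations of same-numbered libraries from their stage means correlated at -0.151 to 0.221, not all over 0.1. With 3 libraries a stage these correlations cannot settle whether same-numbered libraries share a litter or a day, and the labels do not say. With the replicate block the members changed were 2 in the earlier interval, 5 in the later and 5 over the whole period, the other pathway genes changed were 8, 7 and 11, 6 members passed the 3-stage test, and 5 of the 8 ratios passed, where the smallest permutation p is 0.0278 before adjustment. Gli1 over Gli3, Hhip over Ptch1 and Gas1 over Cdon did not pass that permutation test (adjusted p = 0.111, 0.0635 and 0.0635). Another scaling moved no member's level by more than 2.94%. The lowest counts of any member in a library were 57 for Hhip and 60 for Shh.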
